A study of Caenorhabditis elegans with 18 samples.

Results

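The genes described here are targets of WAGO class 22G-RNAs whose small RNAs were depleted in 1 of 2 *tcer-1* mutants and largely kept in the other. They were chosen from the sRNA-seq values. A locus of the WAGO class needed a mean of at least 10 RPM (reads scaled to the size of the library) in wildtype, a mean of at most 50% of the wildtype mean in 1 mutant, and a mean of at least 75% of it in the other. Of 2215 WAGO loci, 1798 reached 10 RPM in wildtype. Of these, 61 were lower in *tcer-1(glm27)* only and 44 were lower in *tcer-1(tm1452)* only, 105 loci in all, beside 305 that were at or under 50% in both mutants.

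The animals were whole gravid hermaphrodites collected after 72 h at 20 °C on *E. coli* OP50. The 3 groups were wildtype (N2), *tcer-1(tm1452)* (strain CF2166) and *tcer-1(glm27)* (strain AGP278), with 3 libraries each for sRNA-seq and for mRNA-seq, 18 in all. *glm27* removes the coding region and was made with CRISPR-Cas9, and *tm1452* is an older deletion allele whose carriers are described by the study as developing out of step with each other. The mutants are called *tm1452* and *glm27* from here on. The groups differ in strain as well as in allele, and whole animals hold soma, germline and embryos, so fewer cells of a type and less RNA per cell cannot be told apart.

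22G-RNAs are short antisense RNAs that start with G. RNA-dependent RNA polymerases make them on a target mRNA, which serves as the template, and worm-specific Argonautes (WAGOs) bind them and silence that target in the cytoplasm or the nucleus. Many WAGO targets are pseudogenes, repeats and genes with little expression, and upstream piRNAs or 26G-RNAs of the Argonaute ERGO-1 can start the process.

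The mRNA of *tcer-1* itself, which codes for a transcription elongation and splicing factor, was read first as a check of the labels. Its normalized count was 5877, 6034 and 6346 in the wildtype libraries, 959, 862 and 1026 in *tm1452*, and 529, 496 and 470 in *glm27*. Both mutants were far below wildtype and did not overlap with each other. The sRNA-seq libraries held about 12903200 to 16000000 reads and the mRNA-seq libraries about 17998500 to 27818100, as read from the smallest step between values. The small RNA library of *tm1452* replicate 3 stood somewhat apart. Its correlation with the other libraries of its group over the WAGO loci was 0.995, against 0.998 to 0.999 within every other pair of a group, and its WAGO loci summed to 269074 RPM against 234449 and 235561. Without it, 47 of the 61 loci lower in *glm27* only still met the rule and no others joined them, and 39 of the 44 lower in *tm1452* only did so, with 6 others. Loci named below that then failed were *Y38F2AR.12*, *tln-1*, *F41B5.1*, *M57.1*, *B0391.10*, *pqn-65*, *Y50D4A.6* and *F07B7.1* with its copy *W09B7.1*. Of those lower in *tm1452* only, *fer-1* and *Y23H5B.3* failed. Markers of the animals' cell types shifted too. At an adjusted p under 0.05 whatever the size, 10 of 12 oocyte and eggshell genes were lower in each mutant (median log2 fold change -0.70 in *tm1452* and -0.69 in *glm27*), with summed normalized counts of 259368 to 276622 in wildtype, 169885 to 185691 in *tm1452* and 176306 to 192902 in *glm27*. Likewise 5 and 6 of 8 germline genes were lower in *tm1452* and *glm27* (medians -0.33 and -0.42), and 6 and 0 of 6 yolk genes were lower (0 and 1 higher). Of 8 neuronal genes, 6 and 4 were higher and 2 and 2 lower, and of 12 larval or moulting cuticle genes, 7 and 8 were higher and 4 and 1 lower. Of all genes tested, 35.3% and 33.2% were higher and 34.1% and 27.5% lower at that limit in *tm1452* and *glm27*. At 2-fold, 0 oocyte and 0 germline genes were called. At that limit 20.2% and 14.5% of all genes were called higher and 7.51% and 2.07% lower. The part of these shifts in the 22G-RNA and mRNA values was not tested. Sperm and muscle genes are given beside the loci they moved with.

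**Figure D1:**
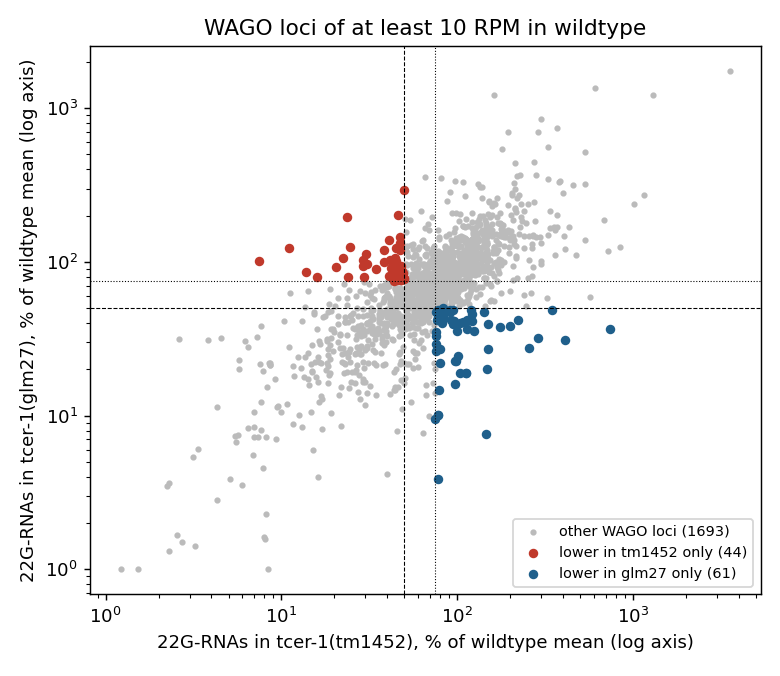
Mean 22G-RNA level of each of the 1798 WAGO loci in *tm1452* (x axis) and *glm27* (y axis), as a percentage of the wildtype mean on log axes, with values under 1% drawn at 1%. The dashed lines mark 50% and the dotted lines 75%, so the 44 red and 61 blue loci fill 2 corners by choice, and grey points show the other loci.

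The 44 loci lower in *tm1452* only summed to 4443, 4485 and 4412 RPM in the wildtype libraries, 1537, 1512 and 1802 RPM in *tm1452*, and 4363, 4399 and 4342 RPM in *glm27*. The 61 loci lower in *glm27* only summed to 8079, 8117 and 7958 RPM in wildtype, 7382, 7497 and 8843 RPM in *tm1452*, and 2432, 2486 and 2437 RPM in *glm27*. In the mutant that lost the 22G-RNAs, the median locus stood at 43.5% of wildtype in the first group and 39.4% in the second. In both groups the libraries of the losing mutant lay far below all others, which the rule fixes, so the values are a description.

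Few loci lost nearly all of their 22G-RNAs. Over 40% of the wildtype mean was still held by 27 of the 44 and 27 of the 61 loci, and at most 10% was left at 1 locus of the first group (*cht-2*) and 3 of the second (*Y38F2AR.12*, *rimb-1* and *tln-1*). Just inside the 50% limit were *fbxa-146* (49.8% in *tm1452*), *chil-24* (49.9%), *Y50D4A.6* (49.0% in *glm27*) and *Y116F11B.10* (49.9%). Just outside it were *acdh-11* (50.1%), *R11A5.3* (50.8%), *dnj-7* (50.4%) and *Y48G1BM.2* (50.8%). The 75% limit ran between *rpi-2* (75.5% in *glm27*) and *W02B12.13* (74.9%), and between *tln-1* (75.2% in *tm1452*) and *R08E3.3* (74.9%). The limit of 10 RPM ran between *F45D11.6* (10.5 RPM in wildtype) and *F41G4.5* (9.75 RPM) for the second group, and lay well under *C40A11.10* (15.7 RPM) in the first.

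Membership also depended on how the libraries were scaled. Equal upper quartiles over the WAGO loci raise the log2 ratio to wildtype by 0.33 in *tm1452* and 0.35 in *glm27*, and equal miRNA totals lower it by 0.39 and 0.40 (-0.39 and -0.40). Under the first, 36 and 45 loci met the rule, of which 17 and 29 were among the 44 and 61. Under the second, 41 and 64 met it, of which 19 and 28 were among them. Only 9 and 16 loci met the rule on all 3 scales. The 9 were *cht-2*, *T25D3.3*, *C55C3.3*, *T16A1.9*, *C40A11.10*, *E01G4.5*, *F22B5.6*, *F09F7.6* and *ugt-45*. The 16 were *F07B7.2* and its copy *W09B7.2*, *Y116F11B.7*, *egl-8*, *rimb-1*, *F16F9.4*, *nhr-48*, *lnp-1*, *spat-3*, *lin-15A*, *ceh-20*, *dgk-2*, *sec-16A.2*, *C16H3.3*, *C35B1.5* and *F13A7.11*.

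The shares of the chromosomes differed between the groups. Of the loci with a position in WBcel235, chromosome X held 20 of the 57 lower in *glm27* only (35.1%), 1 of the 43 lower in *tm1452* only (2.33%), and 235 of all 1602 WAGO loci of at least 10 RPM (14.7%). Chromosome V held 18 (31.6%), 3 (6.98%) and 282 (17.6%) of the same sets. Chromosomes I and II together held 23 of the 43 and 7 of the 57, while chromosomes III and IV held 16 and 12. With equal upper quartiles chromosome X held 36.4% of the loci lower in *glm27* only and 0 of 34 of the others, and with equal miRNA totals 35.6% and 0 of 40. On chromosome V the order depended on the scale, with 27.3% and 2.94% under equal upper quartiles but 22.03% and 22.5% under equal miRNA totals, where all loci had 17.9%. These shares follow from the small RNA values that chose the loci and were not tested.

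**Figure D2:**
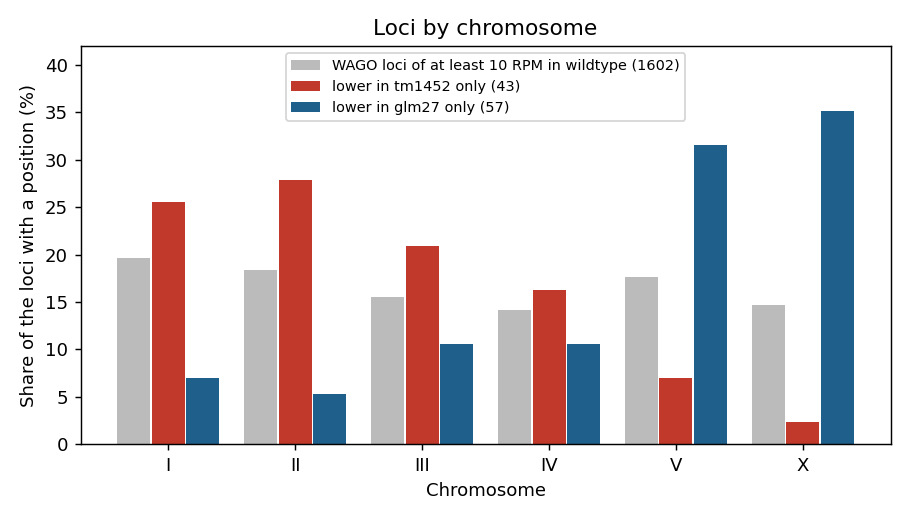
Share of loci on each chromosome (y axis, % of the loci with a position) for 1602 WAGO loci of at least 10 RPM in wildtype (grey), 43 lower in *tm1452* only (red) and 57 lower in *glm27* only (blue), as deposited. The blue bars are highest on chromosomes V and X (31.6% and 35.1%), where the red bars are lowest (6.98% and 2.33%).

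WAGO loci outside both groups showed the same order on chromosomes V and X. For the 214 other loci on chromosome X, the median 22G-RNA level was 60.4%, 61.6% and 62.5% of the wildtype mean in the *glm27* libraries, against 70.8%, 70.8% and 78.7% in *tm1452*. For the 261 other loci on chromosome V it was 68.4%, 71.6% and 70.4% in *glm27* and 74.0%, 74.8% and 81.8% in *tm1452*. On chromosomes I to IV the *glm27* medians lay between 72.3% and 78.9%. There the *tm1452* medians lay between 69.9% and 74.7% in replicates 1 and 2 and between 79.8% and 82.1% in replicate 3. The *glm27* and *tm1452* libraries did not overlap on chromosomes V and X. On each of chromosomes I to IV, *tm1452* replicates 1 and 2 lay below every *glm27* library and replicate 3 above, so the overlap there rests on replicate 3. No test was made of these medians, and the neighbouring loci share libraries and scaling.

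**Figure D3:**
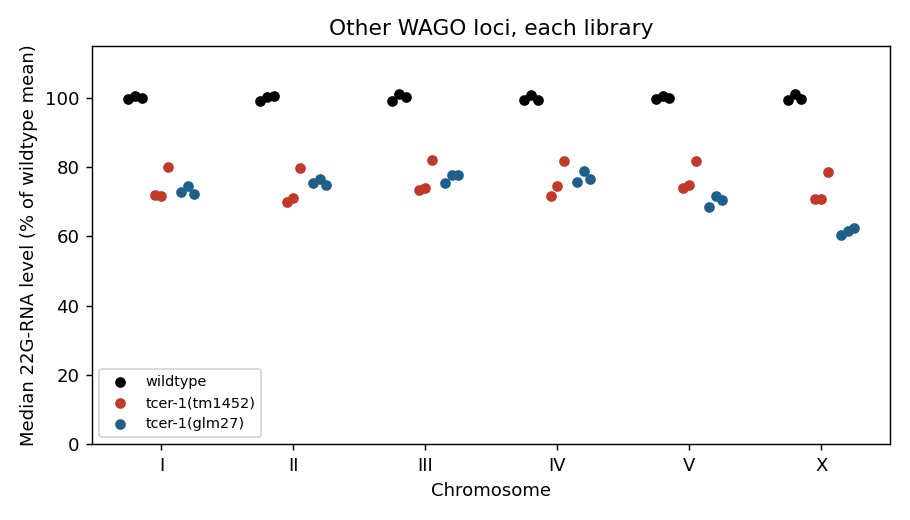
Median 22G-RNA level of the WAGO loci that belong to neither group, by chromosome (x axis) and library (points), as a percentage of the wildtype mean (y axis, from 0). The 3 *glm27* libraries lie between 60.4% and 62.5% on chromosome X and between 72.3% and 78.9% on chromosomes I to IV.

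Some of the loci on chromosome X lay within 20 kb of each other. *spat-3*, which codes for a RING protein of the Polycomb-like complex, lies at chrX:4596011-4605928 on the reverse strand (WBcel235). Near it are *pqn-65*, a gene for a glutamine- and asparagine-rich protein, at chrX:4610911-4619635 on the same strand and *lnp-1*, the worm lunapark of the endoplasmic reticulum, at chrX:4588762-4590446 on the forward strand. *spat-3* 22G-RNAs were at 35.4, 32.7 and 31.1 RPM in wildtype, 32.6, 33.8 and 36.8 RPM in *tm1452*, and 5.80, 6.85 and 6.22 RPM in *glm27*. The other pair was *nhr-48*, a nuclear hormone receptor gene, at chrX:15708213-15716875 and *lin-15A*, a synthetic multivulva gene, at chrX:15731968-15735365. In all, 11 of the 61 loci (18%) lay within 20 kb of another of their group, and 0 of the 44 did. Among all 1798 loci, 56.3% had such a neighbour, but that set is far larger. Apart from the chromosome X loci just named, the 11 lie on chromosome V. They include *F07B7.1*, *F07B7.2* and their identical copies, described below, which are counted here as separate loci.

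The clearest case in which lost 22G-RNAs and raised mRNA went together was a pair of neighbouring genes on chromosome V. RefSeq describes *F07B7.2* as a retrotransposon protein and *F07B7.1*, which starts just downstream on the same strand, as a protein with a CCHC-type zinc finger, a fold found in the nucleic acid binding proteins of retroelements. Both genes have a second copy, *W09B7.2* and *W09B7.1*, that starts 42094 bases away and is identical over the whole gene. The deposited values of the copies are also identical in both tables, so the 4 loci are 2 measurements and the reads cannot be given to either copy. *F07B7.2* lies at chrV:8870259-8872003 and *W09B7.2* at chrV:8828165-8829909, *F07B7.1* at chrV:8872277-8873535 and *W09B7.1* at chrV:8830183-8831441, all on the forward strand of WBcel235. The first 60 coding bases of each, read from the reference genome 5′ to 3′, show the identity. Capitals mark each C at or after base 22, which is where the first G of a complementary 22G-RNA can pair.
F07B7.2: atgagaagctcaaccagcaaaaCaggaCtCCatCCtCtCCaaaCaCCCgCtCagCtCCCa
W09B7.2: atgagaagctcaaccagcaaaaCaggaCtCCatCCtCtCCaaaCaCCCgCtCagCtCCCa
F07B7.1: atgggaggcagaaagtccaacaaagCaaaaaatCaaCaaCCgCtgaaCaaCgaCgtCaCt
W09B7.1: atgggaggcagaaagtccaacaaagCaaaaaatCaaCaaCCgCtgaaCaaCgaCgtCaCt

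*F07B7.2* 22G-RNAs were at 104.3, 104.1 and 104.5 RPM in the wildtype libraries, 103, 112 and 138 RPM in *tm1452*, and 19.5, 19.7 and 20.1 RPM in *glm27*. Its mRNA stood at 85.5, 94.0 and 100 normalized counts in wildtype, 189, 193 and 181 in *tm1452*, and 1350, 1221 and 1327 in *glm27*. The *glm27* libraries were far above all others, and the wildtype and *tm1452* libraries did not overlap either. On the scale of log2(normalized count + 1), the mRNA of *F07B7.2* rose by 3.79 in *glm27* (standard error 0.08, limma adjusted p = 4.54e-13) and by 1.004 in *tm1452* (standard error 0.08, limma adjusted p = 1.06e-07). The *tm1452* call lies at the 2-fold limit and is lost without wildtype replicate 1 or *tm1452* replicate 2, with a pseudocount of 5, or with equal totals. The difference between the mutants was -2.78 (*tm1452* minus *glm27*, standard error 0.08, limma adjusted p = 1.25e-11).

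*F07B7.1* had 285, 297 and 286 RPM of 22G-RNAs in wildtype, 190, 195 and 293 RPM in *tm1452*, and 29.9, 29.7 and 28.2 RPM in *glm27*. Replicate 3 of *tm1452* was at the wildtype level and the other replicates below it. Without replicate 3 *F07B7.1* no longer meets the rule. The *F07B7.1* mRNA was at 10.6, 10.4 and 11.4 normalized counts in wildtype, 40.1, 52.8 and 43.7 in *tm1452*, and 450, 417 and 402 in *glm27*, with no overlap between groups. The log2 fold change was 5.17 in *glm27* (standard error 0.16, limma adjusted p = 1.38e-11) and 1.97 in *tm1452* (standard error 0.16, limma adjusted p = 6.57e-08), and the mutants differed by -3.19 (limma adjusted p = 1.87e-09).

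**Figure D4:**
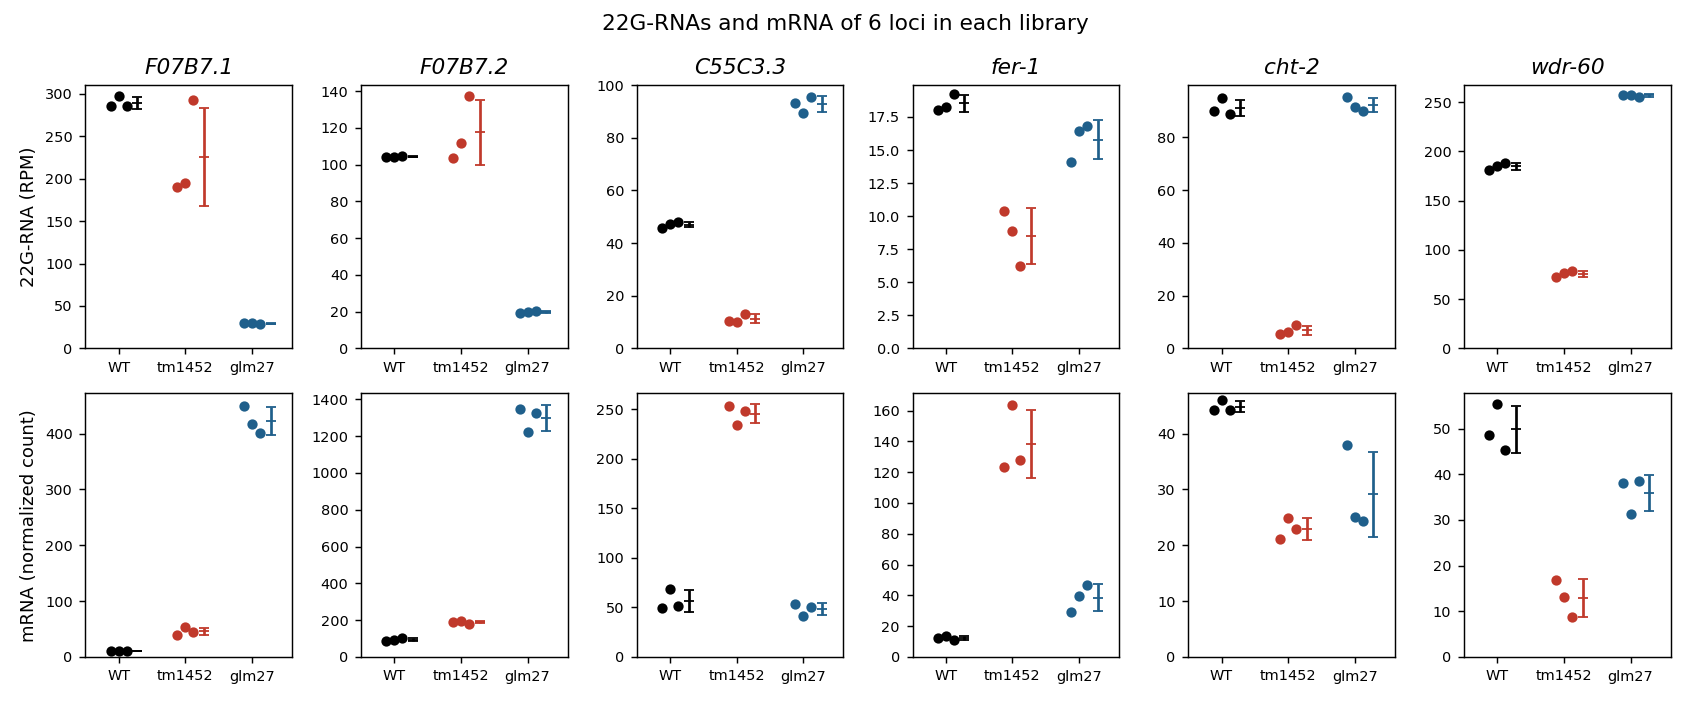
22G-RNAs (upper row, RPM) and mRNA (lower row, normalized count) of 6 loci in each library of wildtype (black), *tm1452* (red) and *glm27* (blue), with the mean and SD of the 3 libraries beside the points. *F07B7.1* and *F07B7.2* have their lowest 22G-RNAs and highest mRNA in *glm27*, *C55C3.3* and *fer-1* in *tm1452*, while *wdr-60* has its lowest 22G-RNAs and lowest mRNA in the same mutant.

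Among the other loci lower in *glm27* only, 3 further mRNAs passed the test upward in that mutant. *F41B5.1*, which codes for a protein with a BED-type zinc finger, had 693, 696 and 722 RPM of 22G-RNAs in wildtype, 530, 520 and 552 RPM in *tm1452*, and 184, 180 and 191 RPM in *glm27*. The *F41B5.1* mRNA was at 79.3, 73.1 and 80.7 normalized counts in wildtype, 77.7, 91.1 and 97.2 in *tm1452*, and 183, 201 and 188 in *glm27*. Only the *glm27* libraries stood apart, by 1.28 on the log2 scale against wildtype (limma adjusted p = 8.06e-07) and with -1.10 for *tm1452* against *glm27* (limma adjusted p = 6.26e-06). The F-box gene *fbxa-59* rose by 1.22 (limma adjusted p = 1.51e-05), from 62.1, 55.4 and 53.8 normalized counts in wildtype to 153, 106 and 149 in *glm27*. The mutants differed by -0.58 (limma adjusted p = 0.00907), under the 2-fold limit, with 82.3, 102 and 84.6 in *tm1452*. Of the 22-base sites of *fbxa-59* that end in C, 35.8% occur elsewhere in the genome, so its values are uncertain.

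The third, *Y116F11B.7*, an uncharacterized gene, went against its small RNAs. Its 22G-RNAs were at 14.5, 13.7 and 12.96 RPM in wildtype, 19.4, 20.2 and 21.7 RPM in *tm1452*, and 3.77, 3.67 and 3.68 RPM in *glm27*. The *Y116F11B.7* mRNA was at 0.883, 1.04 and 0 normalized counts in wildtype, about 1 read or none, 26.9, 31.5 and 30.5 in *tm1452*, and 6.64, 10.8 and 5.62 in *glm27*. The mRNA was thus highest in the mutant with the most 22G-RNAs. The fitted log2 fold change of 4.28 in *tm1452* (limma adjusted p = 3.2e-07) and 2.42 in *glm27* (limma adjusted p = 0.000113) depends on the added 1, since wildtype is near 0, and the mutants differed by 1.86 (limma adjusted p = 0.00169). 1 mRNA was lower in *glm27*, that of *M57.1*, a gene for an SPK domain protein, with 451, 414 and 429 normalized counts in wildtype, 120, 155 and 145 in *tm1452*, and 217, 173 and 184 in *glm27*. It fell in both mutants, by 1.62 and 1.18 on the log2 scale (limma adjusted p = 1.45e-08 and 7.8e-07).

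The 3 largest losses of 22G-RNAs in *glm27* left the mRNA there within 2-fold of wildtype. Of these, *Y38F2AR.12* and *tln-1* no longer meet the rule without the small RNA library of *tm1452* replicate 3. *Y38F2AR.12*, which codes for a 5-oxoprolinase, had 177, 177 and 174 RPM in wildtype, 131, 132 and 147 RPM in *tm1452*, and 7.12, 6.41 and 6.81 RPM in *glm27*, or 3.85% of wildtype. The *Y38F2AR.12* mRNA was at 741, 683 and 745 normalized counts in wildtype, 890, 894 and 790 in *tm1452*, and 1013, 1095 and 999.8 in *glm27*, a log2 fold change of 0.52 in the last (95% interval 0.37 to 0.66). *rimb-1*, for an active zone protein of synapses, had 96.9, 97.8 and 91.7 RPM in wildtype, 128, 133 and 159 RPM in *tm1452*, and 6.83, 6.88 and 8.07 RPM in *glm27*. Its mRNA log2 fold change in *glm27* was -0.20 (95% interval -0.43 to 0.03), so a rise of 2-fold lies outside the interval.

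*tln-1*, which codes for talin of cell attachments and muscle, was at 380, 400 and 391 RPM in wildtype, 294, 285 and 302 RPM in *tm1452*, and 38.2, 39.2 and 34.3 RPM in *glm27*. The *tln-1* mRNA was at 2135, 2109 and 2678 normalized counts in wildtype, 3914, 5401 and 4758 in *tm1452*, and 3067, 3392 and 2816 in *glm27*. The *tln-1* mRNA rose by 1.02 in *tm1452* (limma adjusted p = 1.43e-06), where its 22G-RNAs were largely kept, a call that is lost without wildtype replicate 1 or 2 or *tm1452* replicate 2, and differed by 0.43 in *glm27* (limma adjusted p = 0.00394). Body wall muscle markers moved with it, as 6 of 6 were called higher in *tm1452* and 0 of 6 in *glm27*, against 20.2% and 14.5% of all genes. At an adjusted p under 0.05 whatever the size, 5 of 6 were higher in *glm27*, against 33.2% of all genes. Summed normalized counts of the markers ran from 35785 to 45677 in wildtype, 123751 to 142874 in *tm1452* and 49465 to 55897 in *glm27*. Their part in the *tln-1* result was not tested. The Hox cofactor gene *ceh-20* showed the reverse order, with 376, 383 and 380 normalized counts of mRNA in wildtype, 349, 315 and 311 in *tm1452*, and 647, 610 and 597 in *glm27*, where its 22G-RNAs were at 35.5% of wildtype. The mutants differed by -0.93 (limma adjusted p = 1.15e-07), just under the 2-fold limit.

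At 6 of the 61 loci the 22G-RNAs in *tm1452* were at least 2 times the wildtype mean. The widest span was that of *egl-8*, which codes for a phospholipase C beta of neurons and intestine, with 17.5, 20.7 and 17.0 RPM in wildtype, 125, 130 and 151 RPM in *tm1452*, and 5.49, 6.95 and 7.83 RPM in *glm27*. Its mRNA was nearly level, with means of 1550 ± 56.2, 1561 ± 45.7 and 1624 ± 34.9 normalized counts (SD, n = 3) in wildtype, *tm1452* and *glm27*, and the difference between the mutants was -0.06 on the log2 scale (95% interval -0.17 to 0.05). The other 5 were *F16F9.4* (24.6, 101 and 7.67 RPM on average in wildtype, *tm1452* and *glm27*), *B0261.8* (37.4, 129 and 18.3 RPM), *lnp-1* (13.99, 40.0 and 4.48 RPM), *nhr-48* (14.7, 37.4 and 4.02 RPM) and *F20B6.5* (145, 322 and 60.3 RPM). Of these, the mRNAs of *F16F9.4* and *F20B6.5* were called higher in *tm1452*, with log2 fold changes of 1.07 and 1.39 (limma adjusted p = 8.22e-06 and 0.0342). The first call is lost without *tm1452* replicate 1, and the second without that library, wildtype replicate 2 or wildtype replicate 3, or with a pseudocount of 5. *F20B6.5* stood at only 1.76, 1.04 and 1.14 normalized counts in wildtype, 9.17, 3.97 and 3.28 in *tm1452*, and 4.72, 0.898 and 1.87 in *glm27*.

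Of the 44 loci lower in *tm1452* only, 5 are also listed as sources of ERGO-1 class 26G-RNAs (11.4%), against 60 of all 1798 loci (3.34%) and 0 of the 61. ERGO-1 26G-RNAs are made in oocytes and embryos and start the production of 22G-RNAs on their targets. The 5 are *E01G4.5*, *T16A1.9*, *C40A11.10*, *Y9D1A.2* and the pseudogene *fbxc-37*. 22G-RNAs of *E01G4.5*, which codes for a C2H2 zinc finger protein, were at 144, 136 and 147 RPM in wildtype, 42, 36.8 and 49.6 RPM in *tm1452*, and 168, 162 and 154 RPM in *glm27*. Its 26G-RNAs were at 3.32, 2.74 and 3.71 RPM in wildtype, 1.01, 1.48 and 0.370 RPM in *tm1452*, and 3.64, 2.30 and 2.81 RPM in *glm27*, so both kinds were low in the same libraries.

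The 26G-RNAs of *T16A1.9* (14.9, 3.61 and 13.4 RPM on average in wildtype, *tm1452* and *glm27*), *C40A11.10* (4.80, 0.623 and 3.64 RPM) and *fbxc-37* (3.79, 0.860 and 4.54 RPM) had the same order of *tm1452* under both other groups. Those of *Y9D1A.2* were at or under 0.160 RPM in every library, too few to read. The whole ERGO-1 class moved alike, with sums of 193 to 236 RPM in wildtype, 62.4 to 96.8 RPM in *tm1452* and 187 to 296 RPM in *glm27*. *T16A1.9* and *C40A11.10* were not in the mRNA table. The mRNA of *E01G4.5* was at 179, 191 and 187 normalized counts in wildtype, 164, 130 and 112 in *tm1452*, and 222, 233 and 198 in *glm27*, and that of *fbxc-37* at 26.5, 26.1 and 24.99, 10.03, 13.2 and 15.3, and 33.1, 35.01 and 32.7. Of their 22-base sites ending in C, 67.2% of *fbxc-37* and 97.2% of *Y9D1A.2* occur elsewhere in the genome, so their values are uncertain. Both mRNAs were lowest where the small RNAs were lowest, and the mutants differed by -0.69 for *E01G4.5* (limma adjusted p = 0.00054, under the 2-fold limit) and by -1.34 for *fbxc-37* (limma adjusted p = 0.000339).

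*C55C3.3* was the only locus of the 44 that is also listed as a source of ALG-3/4 class 26G-RNAs, which are made during spermatogenesis, and it showed opposite small RNA and mRNA levels. Its second coding exon on the forward strand of chromosome IV opens with the bases below (WBcel235, chrIV:5685457-5685516, 5′ to 3′), shown beside the same stretch of the second exon of the chitinase-like gene *cht-2* (chrII:8521287-8521346), the locus with the largest loss. Capitals again mark each C from base 22 on.
C55C3.3: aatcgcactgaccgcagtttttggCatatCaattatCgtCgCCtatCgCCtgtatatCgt
cht-2: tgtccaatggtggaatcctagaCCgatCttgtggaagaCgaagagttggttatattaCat

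22G-RNAs of *C55C3.3* were at 45.8, 47.2 and 47.9 RPM in wildtype, 10.5, 9.85 and 13.1 RPM in *tm1452*, and 93.0, 89.5 and 95.5 RPM in *glm27*. The *C55C3.3* mRNA was at 49.5, 68.9 and 51.1 normalized counts in wildtype, 254, 234.6 and 248 in *tm1452*, and 53.1, 41.2 and 50.6 in *glm27*. Only *tm1452* stood apart, by 2.12 on the log2 scale against wildtype (standard error 0.16, limma adjusted p = 2.75e-08) and 2.33 against *glm27* (limma adjusted p = 3.45e-08). Its 26G-RNAs were at 0, 0 and 0.0800 RPM in wildtype, 0.740, 1.08 and 1.12 RPM in *tm1452*, and 0.0800, 0.130 and 0.340 RPM in *glm27*.

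*fer-1*, a ferlin needed for membrane fusion in sperm, was at 18.03, 18.3 and 19.3 RPM in wildtype, 10.4, 8.86 and 6.24 RPM in *tm1452*, and 14.1, 16.4 and 16.8 RPM in *glm27*. The *fer-1* mRNA was at 12.3, 13.6 and 11.2 normalized counts in wildtype, 124, 164 and 128 in *tm1452*, and 29.2, 39.9 and 46.5 in *glm27*, with no overlap between groups. It rose by 3.37 (standard error 0.21, limma adjusted p = 5.22e-09) and 1.54 (limma adjusted p = 2.26e-05), and the mutants differed by 1.83 (limma adjusted p = 8.77e-06). Sperm markers moved with it. Of 9 listed, 9 were called higher in *tm1452* and 6 in *glm27*, against 20.2% and 14.5% of all genes. Their summed normalized count ran from 160 to 238 in wildtype, 3089 to 3331 in *tm1452* and 724 to 871 in *glm27*. Of the major sperm protein (*msp*) genes, 30 of 30 tested were called higher in each mutant. The *msp* sums ran from 556 to 762 in wildtype, 20242 to 23318 in *tm1452* and 4086 to 5262 in *glm27*. The part of these sperm genes in the *fer-1* and *C55C3.3* results was not tested.

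Another 4 mRNAs of the 44 loci were called higher in *tm1452*. *C34C12.7*, for a PAN/Apple domain protein, had 66.1, 73.0 and 61.9 RPM of 22G-RNAs in wildtype, 20.5, 19.0 and 22.0 RPM in *tm1452*, and 66.2, 63.3 and 64.1 RPM in *glm27*. The *C34C12.7* mRNA was at 78.5, 86.7 and 72.7 normalized counts in wildtype, 418, 458 and 437 in *tm1452*, and 144, 166 and 137 in *glm27*, again with no overlap. It rose by 2.45 in *tm1452* (limma adjusted p = 1.09e-10), and the mutants differed by 1.55 (limma adjusted p = 4.6e-08). *F32B5.6*, for a MIF4G domain protein, rose by 1.35 (limma adjusted p = 1.36e-10), the phosphodiesterase gene *pde-1* by 1.11 (limma adjusted p = 1.64e-05) and *Y23H5B.3* by 1.07 (limma adjusted p = 0.00994). The last call is lost without wildtype replicate 2 or *tm1452* replicate 2, or with a pseudocount of 5, and the *pde-1* call without wildtype replicate 1. None of these 3 was called between the mutants.

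*C07A9.9* was called between the mutants but at 0.92 stayed under 2-fold against wildtype. Its 22G-RNAs were at 670, 664 and 634 RPM in wildtype, 114, 122 and 164 RPM in *tm1452*, and 599, 618 and 606 RPM in *glm27*. The *C07A9.9* mRNA was at 96.1, 80.4 and 94.3 normalized counts in wildtype, 168, 173 and 175 in *tm1452*, and 80.4, 72.7 and 80.4 in *glm27*. All *tm1452* libraries were above the others, by 1.13 against *glm27* (limma adjusted p = 3.7e-06).

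At the 2-fold limit, 2 genes of the 44 were called lower in mRNA in *tm1452*, where their 22G-RNAs were low. Whatever the size or p-value, the fitted change there was below 0 for 22 of the 42 tested and above 0 for 20. *wdr-60*, for a WD repeat subunit of the dynein that works in cilia, had 181, 185 and 188 RPM in wildtype, 72.3, 76.6 and 78.2 RPM in *tm1452*, and 258, 258 and 255.4 RPM in *glm27*. Its mRNA was at 48.7, 55.3 and 45.4 normalized counts in wildtype, 16.8, 13.1 and 8.69 in *tm1452*, and 37.97, 31.4 and 38.5 in *glm27*. It fell by 1.91 (limma adjusted p = 9.43e-06) and the mutants differed by -1.45 (limma adjusted p = 0.000285). The histone H4 gene *his-31*, whose sequence is shared with other H4 genes (42.9% of its 22-base sites that end in C occur elsewhere in the genome), was at 177, 187 and 178 normalized counts in wildtype, 98.4, 78.4 and 81.0 in *tm1452*, and 312, 350 and 413 in *glm27*. It fell by 1.07 in *tm1452* (limma adjusted p = 2.29e-06), and the mutants differed by -2.05 (limma adjusted p = 1e-08). Since reads of H4 genes can be shared, the *his-31* values are uncertain.

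The loci that lost most in *tm1452* had fitted mRNA changes under 2-fold in that mutant. *cht-2* had 90.1, 94.8 and 89.1 RPM in wildtype, 5.57, 6.06 and 8.67 RPM in *tm1452*, and 95.4, 91.6 and 90.1 RPM in *glm27*, or 7.41% of wildtype in the first mutant. Its mRNA was at 44.2, 45.9 and 44.2 normalized counts in wildtype, 21.03, 24.9 and 22.8 in *tm1452*, and 37.96, 25.1 and 24.4 in *glm27*, and the mutants overlapped, with a difference of -0.31 (95% interval -0.79 to 0.17). Against wildtype the *cht-2* mRNA changed by -0.94 in *tm1452* (95% interval -1.42 to -0.46, limma adjusted p = 0.00171), so a fall of 2-fold lies inside the interval. *T25D3.3* was at 36.5, 40.0 and 37.3 RPM in wildtype, 3.92, 2.87 and 5.80 RPM in *tm1452*, and 46.8, 49.1 and 45.1 RPM in *glm27*. Its mRNA rose against wildtype by 0.67 in *tm1452* and 0.70 in *glm27* (limma adjusted p = 2.41e-05 and 2.06e-05). The mutants differed by -0.03 (95% interval -0.24 to 0.17).

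*dyf-3*, which is needed to build sensory cilia, was at 103.6, 114 and 106 RPM in wildtype, 14.6, 14.8 and 15.03 RPM in *tm1452*, and 92.8, 93.2 and 92.0 RPM in *glm27*. Its mRNA was at 69.6, 72.3 and 81.6 normalized counts in wildtype, 44.5, 39.5 and 55.4 in *tm1452*, and 26.7, 34.8 and 31.1 in *glm27*, so it was lowest in the mutant that kept its 22G-RNAs, where it fell by 1.25 (limma adjusted p = 4.87e-05). 2 other loci of this group had at least 2 times the wildtype 22G-RNAs in *glm27*, the chitinase-like gene *chil-24* (35.8, 17.9 and 105 RPM on average in wildtype, *tm1452* and *glm27*) and *F26A3.4* (71.8, 32.9 and 146 RPM). Neither mRNA was called in any comparison.

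The mRNA table held 42 of the 44 and 57 of the 61 loci, and 42 and 52 of them passed the filter of a mean of 2 normalized counts. In *tm1452* against wildtype, 6 of 42 loci lower in that mutant only were called higher (14.3%), against 20.2% of the 17037 genes tested and 12.8% of the 1517 WAGO loci tested. Choosing the members without the small RNA library of *tm1452* replicate 3 left 4 of 43. There 2 of 42 were called lower (4.76%), against 7.51% of all genes and 11.8% of WAGO loci. The median log2 fold change of the 42 was -0.04, beside 0.02 for all genes and -0.10 for WAGO loci, with 20 above 0 and 22 below.

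In *glm27* against wildtype, 7 of 52 loci lower in that mutant only were called higher (13.5%), against 14.5% of all genes and 7.05% of WAGO loci, and counting the identical copies once left 5 of 50. Choosing the members without the small RNA library of *tm1452* replicate 3 left 4 of 38. Only *M57.1* of the 52 was called lower (1.92%), against 2.07% of all genes and 2.9% of WAGO loci. The median of the 52 was 0.07, beside 0.13 for all genes and 0.10 for WAGO loci. The shares called higher in the losing mutant thus lay under those of all genes and above those of WAGO loci. With the 4 of 43, the *tm1452* share lay under that of WAGO loci too. The shares called lower lay under both. These differences were not tested.

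In the mutant that kept the 22G-RNAs, 10 of 52 were called higher in *tm1452* (19.2%, against 20.2% of all genes and 12.8% of WAGO loci) and 1 lower (1.92%, against 7.51% and 11.8%). The 10 became 6 without wildtype replicate 1 and 6 with a pseudocount of 5. They included *B0457.3*, at 0.879, 4.18 and 4.55 normalized counts in wildtype and 6.65, 13.3 and 12.1 in *tm1452*, with a log2 fold change of 1.57 (limma adjusted p = 0.0113) that was 1.07 (limma adjusted p = 0.0556) without wildtype replicate 1. They also included *F16B4.5*, for an hnRNP A1-like protein, with 1.10 (limma adjusted p = 9.12e-05), or 0.95 without wildtype replicate 2. In *glm27*, 1 of 42 was called higher (*fer-1*, 2.38%, against 14.5% and 7.05%) and 1 lower (*dyf-3*, 2.38%, against 2.07% and 2.9%). Without wildtype replicate 3 the 1 higher became 3, and without *glm27* replicate 1 it became 2. All comparisons with wildtype use the same 3 wildtype libraries.

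In the direct comparison of the mutants, of the 42 loci lower in *tm1452* only, 4 were called higher in that mutant than in *glm27* (9.52%), against 11.4% of all genes and 5.08% of WAGO loci, and 3 lower (7.14%), against 8.08% and 9.95%. Without *tm1452* replicate 1 the 3 became 5. Of the 52 loci lower in *glm27* only, 5 were called lower in *tm1452*, that is, higher in *glm27* (9.62%), and 1 the other way. With the copies counted once, the 5 became 3 of 50. The medians were -0.05 and -0.01, beside 0.06 for all genes and -0.07 for WAGO loci.

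**Figure D5:**
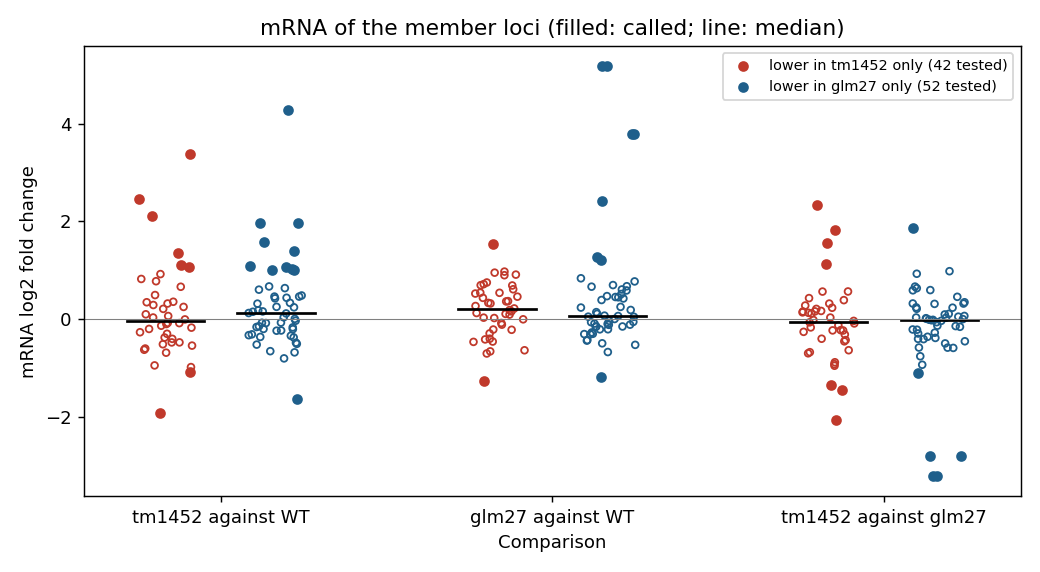
Log2 fold change of mRNA (y axis) of the 42 tested loci lower in *tm1452* only (red) and the 52 lower in *glm27* only (blue) in each comparison, with filled points for loci called by limma and a line at the median. The medians lie between -0.05 and 0.21, and the 4 points above 3 in *glm27* against wildtype are the identical copies of *F07B7.1* and *F07B7.2*.

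The genes that make 22G-RNAs did not divide the mutants by 2-fold. Of 18 listed, among them the RNA-dependent RNA polymerase genes *rrf-1* and *ego-1* and the *mutator* genes, 14 were lower in *tm1452* and 17 in *glm27* at an adjusted p under 0.05 whatever the size, against 34.1% and 27.5% of all genes. In the other direction 0 passed in either mutant, against 35.3% and 33.2% of all genes, and 0 were called at 2-fold in either direction. Between the mutants, 6 were higher in *tm1452* and 1 lower (27.3% and 19.8% of all genes), the largest difference being 0.39 for *nyn-1* (limma adjusted p = 0.000175). Among 11 tested WAGO Argonaute genes, *wago-10* was called higher in both mutants (4.79 in *tm1452* and 3.23 in *glm27*, limma adjusted p = 6.82e-07 and 4.38e-05) and between them (1.55, limma adjusted p = 0.0167), with means of 2.69, 80.0 and 26.6 normalized counts in wildtype, *tm1452* and *glm27*. *wago-11* was called lower in both (-1.63 and -1.33, limma adjusted p = 3.02e-05 and 0.000236), and the mutants differed by -0.30 (limma adjusted p = 0.334). At an adjusted p under 0.05 whatever the size, 4 of the 11 were higher in *tm1452* than in *glm27* and 3 lower (27.3% and 19.8% of all genes). Against wildtype, 2 were higher and 5 lower in *tm1452*, and 4 and 6 in *glm27*. Under 2-fold, the mutants also differed in *sago-2* (-0.57, limma adjusted p = 0.000219), *sago-1* (-0.40, limma adjusted p = 1.92e-05), *wago-2* (0.45, limma adjusted p = 9.07e-05) and *ppw-2* (0.21, limma adjusted p = 0.00941). *nrde-3*, whose protein carries 22G-RNAs of ERGO-1 targets into the nucleus in somatic cells, was at 1880 ± 94.8, 969 ± 4.14 and 1442 ± 58.3 normalized counts (SD, n = 3) in wildtype, *tm1452* and *glm27*. The mutants differed by -0.57 (limma adjusted p = 9.53e-07), so it was lowest in the mutant in which the 5 ERGO-1 class loci were low. The nuclear germline Argonaute gene *hrde-1* was at 26523 ± 584, 20671 ± 982 and 17619 ± 729 normalized counts, and the mutants differed by 0.23 (limma adjusted p = 0.00251).

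Of the 10 loci with the most 22G-RNAs, 5 in each group, the mRNA of 4 was called in at least 1 comparison (*F41B5.1*, *C07A9.9*, *pde-1* and *wdr-60*, above), that of 5 in none, and 1 was not in the mRNA table. Of all genes, 20.2% were called higher and 7.51% lower in *tm1452* against wildtype, and 14.5% and 2.07% in *glm27*. For *tm1452* against *glm27* these shares were 11.4% and 8.08%. The share of all genes called in at least 1 comparison was not counted, so the 4 are only a description. *rpi-2*, for an XRP2-like protein, was at 685, 688 and 689.7 RPM in wildtype, 281, 270.4 and 355 RPM in *tm1452*, and 533, 516 and 508 RPM in *glm27*, and its mRNA differed by -0.23 between the mutants (limma adjusted p = 0.459). *klf-1*, for a Krüppel-like transcription factor, was at 165, 168 and 168 RPM in wildtype, 68.6, 61.3 and 77.2 RPM in *tm1452*, and 170.2, 176 and 172 RPM in *glm27*, and its mRNA differed by -0.12 (limma adjusted p = 0.228). Neither gene had an mRNA that followed its 22G-RNAs past the test. In the other group *T23B12.10*, not in the mRNA table, was at 1379, 1356 and 1282 RPM in wildtype, 1195, 1226 and 1471 RPM in *tm1452*, and 312, 304 and 297 RPM in *glm27*. The pseudogenes *B0391.10*, *fbxa-149* and *Y116F11B.10* had wildtype means of 838, 522 and 407 RPM. Of these, 41.8%, 39.9% and 49.9% remained in *glm27*, and none of their mRNAs was called. Of the 22-base sites ending in C, 19.6% of *B0391.10* and 72.3% of *Y116F11B.10* occur elsewhere in the genome. The Ig-like domain gene *iglr-3*, lower in *tm1452* only, kept 15.98% of its 22G-RNAs there, and its mRNA differed by 0.43 between the mutants (limma adjusted p = 0.048).

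Sequence and annotation were also read, with no test. Pseudogenes made up 7 of the 44 (15.9%), 8 of the 61 (13.1%) and 11.3% of all 1798 loci. The median spliced length was 1352, 1442 and 1238 bases. At least 10% of the 22-base sites ending in C occurred elsewhere in the genome in 5 of the 44 (11.4%), 16 of the 61 (26.2%) and 19.0% of all loci, so 22G-RNA reads of those loci can be shared with other genes. Beside the loci flagged above, they include *fer-1* (14.6% of its sites) and *E01G4.5* (10.9%) in the first group. In the second they include *F41B5.1* (16.6%), *M57.1* (18.5%), *F16B4.5* (18.7%) and *Y50D4A.6* (15.9%). A gene on the opposite strand overlapped 13 (29.5%), 17 (27.9%) and 26.9%. Among the 61 were 4 loci with *fbxa* F-box names (6.56%, against 2.39% of all 1798 loci), 3 nuclear hormone receptor genes (*nhr-1*, *nhr-48* and *nhr-64*, 4.92% against 1.11%) and 2 *pals* genes (3.28% against 0.278%). Of the *fbxa* loci, *fbxa-149*, *fbxa-109* and *fbxa-178* are annotated as pseudogenes.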

How the data were processed

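For sRNA-seq the authors deposited RPM values (reads scaled to the size of the library) made with the tinyRNA pipeline. The mRNA-seq files hold a signal that the authors made with fastp, STAR, RSEM and DESeq2, namely estimated counts divided by the size factor of the library. Of the values under 1.02 RPM, 92.7 to 93.9% were within 0.005 RPM of a whole number of reads, and of mRNA values under 12 reads, 41.4 to 82.2% were within 0.02 reads of one, so no count test was run. Libraries have equal standing as biological replicates in the study, and p-values measure only the spread between them.

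Members were picked from group means of RPM. mRNA was tested with limma 3.58.1 (R 4.3.3) on log2(normalized count + 1), with all 9 libraries in 1 fit, a mean-variance trend, a filter of a mean of at least 2, and Benjamini-Hochberg adjustment over all genes. Genes with a change of at least 2-fold at an adjusted p under 0.05 were called. The method was tested on simulated data. Positions and sequences come from WBcel235 (RefSeq and Ensembl annotation). 5 of the 105 loci had no position there. Python 3.11.15, numpy 2.4.6, pandas 2.3.3 and matplotlib 3.10.9 made tables and figures.

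The members, gene lists and rules were chosen with earlier results of these data known. In each group the rule named the 10 loci with the widest ratio between the mutants, the 5 with the most 22G-RNAs in wildtype, members called between the mutants, the 8 with the largest mRNA change in the losing mutant, the loci nearest each threshold, members of the gene lists (there were 0) and up to 5 of other small RNA classes. The genes *ceh-20*, *spat-3*, *pqn-65*, *lin-15A*, *B0457.3*, *F16B4.5*, *F20B6.5*, *nyn-1* and *hrde-1*, the other Argonaute genes, those with more 22G-RNAs in the other mutant, and the chromosome comparison were chosen after their values were seen. Alternatives covered scaling, the pseudocount, the filter, the trend, the adjusted p, the replicate block, a WT minimum of 50 RPM and each library left out. Strain and allele cannot be told apart.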

Additional observations from a re-analysis of the deposited data

How the results depend on the processing

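Which loci meet the rule depends on the small RNA scaling (36 and 45 loci with equal upper quartiles, 41 and 64 with equal miRNA totals). A wildtype minimum of 50 RPM left 24 loci lower in *tcer-1(tm1452)* only and 28 lower in *tcer-1(glm27)* only, and leaving out each library gave 42 to 47 and 47 to 67. For mRNA, the loci lower in *tcer-1(glm27)* only that were called higher in *tcer-1(tm1452)* against wildtype numbered 6 with a pseudocount of 5 and 6 to 10 with each library left out. The loci lower in *tcer-1(tm1452)* only that were called higher in *tcer-1(glm27)* against wildtype numbered 3 with equal upper quartiles, 3 with equal totals and 1 to 3 with each library left out, and those called lower between the mutants, with the lower level in *tcer-1(tm1452)*, numbered 3 to 5. The cause of these moves was not tested.

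In alternatives chosen after seeing the data, members picked without the small RNA library of *tcer-1(tm1452)* replicate 3 gave 0 of 38 lower in *tcer-1(tm1452)* against wildtype, 0 of 43 higher in *tcer-1(glm27)* against wildtype, 4 of 38 higher and 0 of 38 lower there, and 2 of 38 with lower mRNA in *tcer-1(tm1452)* when set against the other mutant, where identical copies counted once gave 3 of 50. Fewer loci enter these counts. No called mRNA value changed sign in any alternative run. Same-numbered libraries did not deviate together (correlations of -0.04 to 0.08, 0 of 9 pairs over 0.1), so the numbers were not taken as pairs, and the fit with the replicate block gave 6, 10, 1 and 7 members called higher against wildtype, as without the block.

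Depth limits what can be read for mRNAs near 0, such as *Y116F11B.7* and *F20B6.5*.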
